A study of Danio rerio with 9 samples.

Results

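Translation initiation factors were taken as the rows of the deposited expression table whose gene name, in lower case, starts with eif and a digit from 1 to 6. There were 71 such rows among 33737 genes, and 68 of them had enough reads to be tested. RNA was sequenced from whole zebrafish embryos of 3 groups at 72 hours post-fertilization (hpf), with 3 libraries per group and a pool of 30 embryos behind each library. *MZcep290-/-* mutants are maternal-zygotic, so both the egg and the embryo lack a normal copy of the ciliary gene *cep290*, and they carry a 10-bp deletion in exon 16 that shifts the reading frame. *cep290ex25* morphants are embryos injected with a morpholino against the splice donor of exon 25, which disrupts splicing of the same transcript for a limited time. The third group was wild type, labelled TuAB. The mutant is a single allele, and the study calls the wild-type embryos siblings, but no label ties a pool to a clutch. The p-values below therefore measure the spread between pools only. An embryo pool mixes all tissues, so fewer cells of a type and less RNA per cell cannot be told apart.

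Initiation is the step in which a ribosome is loaded onto an mRNA and finds its start codon. The eIF4E, eIF4G and eIF4A proteins bind the cap and unwind the leader, the multi-subunit eIF3 brings the small ribosomal subunit, eIF2 carries the initiator tRNA, and eIF1, eIF1A and eIF5 govern start codon choice. Cells reset the rate mainly through phosphorylation of eIF2 alpha, which blocks its exchange factor eIF2B, and through the 4E-BP proteins, which hold eIF4E away from eIF4G. Many of these genes are present as duplicated copies in zebrafish.

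Levels are RPKM, reads per kilobase of gene scaled to a normalized library size, and the reads behind them could be recovered exactly. Reads on genes numbered from 18662115 to 21299112 in mutant libraries, from 9050375 to 16150393 in morphant libraries and from 5652757 to 7674248 in wild-type libraries, so low values are least certain in wild type. The normalized library size was 1.31 to 1.32 times the read total in mutants, 0.894 to 1.07 times in morphants and 0.737 to 0.859 times in wild type, and the 50 most abundant genes took 21.3% to 21.95%, 27.8% to 34.01% and 40.8% to 41.9% of the reads in the same order of groups. *cep290* itself was read at 1.14 to 1.32 RPKM in mutants, 3.36 to 6.15 RPKM in morphants and 1.62 to 2.60 RPKM in wild type. It was higher in morphants than in wild type (log2 fold change 1.28, limma's adjusted p = 0.0113) and lower in mutants than in morphants (−1.88, adjusted p = 0.00463), while mutants against wild type gave −0.60 (adjusted p = 0.158). Tissue markers moved with the groups. Here genes that rose or fell are those with an adjusted p under 0.05 and a change of more than 2-fold against wild type. Of all genes tested, 10.4% rose and 12.1% fell in mutants by this rule, and 7.45% and 14.9% in morphants. The 6 photoreceptor genes that were tested fell in mutants and in morphants, with a summed level of 18.95 to 21.8 RPKM in mutants, 16.0005 to 22.9 RPKM in morphants and 244 to 316 RPKM in wild type, while *opn1mw1* was at 0 throughout. The summed level of 4 muscle genes was 7865 to 8314 RPKM in mutants, 12539.5 to 17047 RPKM in morphants and 18884.5 to 25323 RPKM in wild type, and 3 of the 4 fell in mutants. Of 6 red cell rows, all 6 fell in mutants and 4 in morphants, where 1 rose. The summed level of 5 neural progenitor genes was 72.2 to 83.0 RPKM in mutants, 55.8 to 64.8 RPKM in morphants and 34.8 to 40.2 RPKM in wild type, with 2 risen in mutants and 1 in morphants, and 2 of 7 genes of dividing cells rose in each. In mutants 3 of 3 skin genes, 4 of 5 pancreas genes and 2 of 4 liver and intestine genes fell and 1 of 4 lens genes rose, and in morphants 3 pancreas, 1 liver and intestine and 2 lens genes fell. The part of these tissue markers in the results on initiation factors was not tested.

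Differences were fitted with limma on log2(RPKM + 0.1), a scale that understates changes of low genes. The 3 groups shared 1 estimate of the spread per gene, so a gene has the same SE in each comparison. The spreads of the groups were unlike, with fitted library weights of 3.69 in mutants, 0.786 in morphants and 0.345 in wild type. A larger weight means less spread between libraries. A gene was called at an adjusted p under 0.05 and a change of more than 2-fold. In mutants against wild type, 9 of 68 factors were called higher and 10 lower (13.2% and 14.7%), where 10.4% and 12.1% of all 21982 genes tested were called higher and lower. Among genes that averaged 10 RPKM or more, 7 of 50 factors were called higher and 9 lower (14% and 18%), against 14.9% and 11.8% of all such genes. On the adjusted p alone, 16 factors were higher and 30 lower in mutants (23.5% and 44.1%), beside 17.8% and 18.2% of all genes. The 3 mutant libraries lay above all 3 wild-type libraries for 20 factors and below them for 32, which held for 25.0% and 27.6% of all genes. The median log2 fold change of the factors was −0.40, and that of all genes −0.02. In morphants against wild type, which share the wild-type libraries with the first comparison, 9 factors were called higher and 1 lower, where the shares of all genes were 7.45% and 14.9%. On the adjusted p alone these were 23 and 14 factors, beside 16.6% and 18.5% of all genes, and the libraries lay apart for 24 and 15 factors, beside 19.9% and 22.4% of all genes.

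**Figure D1:**
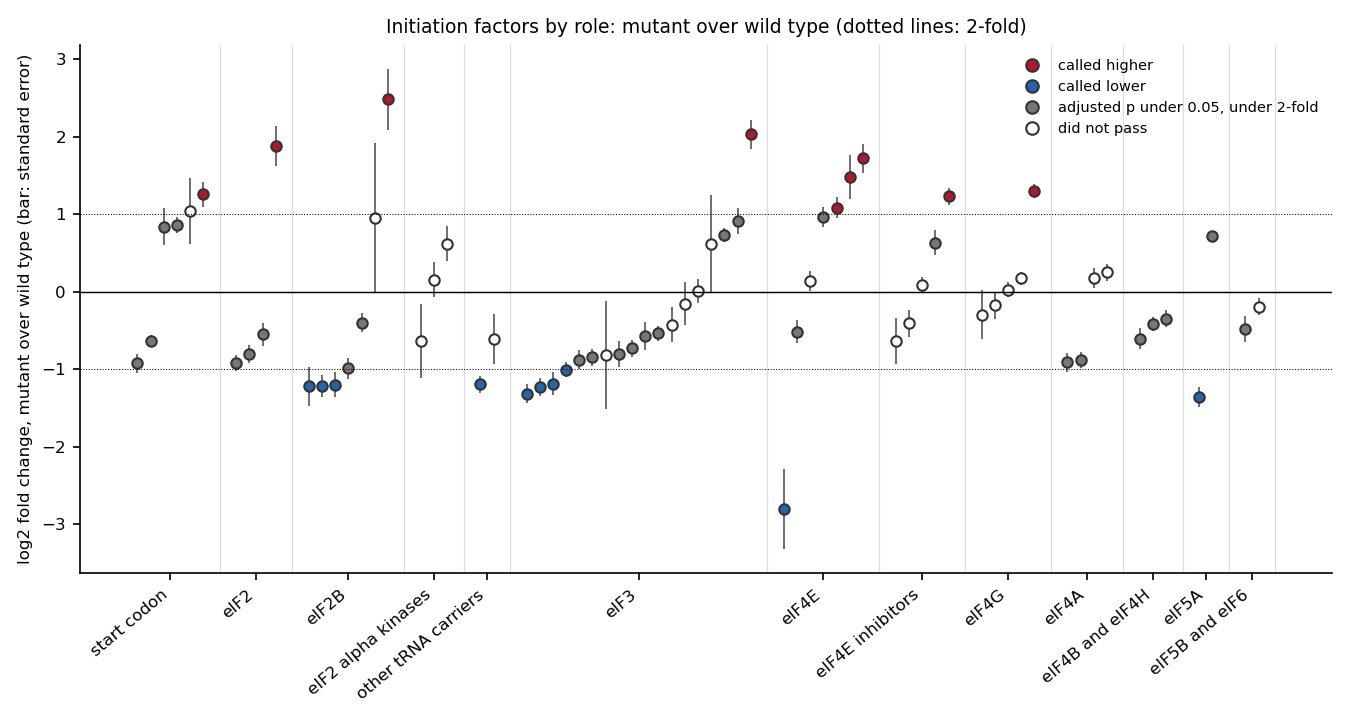
Log2 fold change of the 68 tested factors in mutants over wild type (vertical axis, points with standard errors), grouped along the horizontal axis by role. The eIF2B and eIF3 groups sit mostly below 0, with 3 and 4 factors called lower, while in the eIF4E group 3 of 7 factors were called higher. Of all genes tested, 12.1% were called lower and 10.4% higher.

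Among the factors that carry the initiator tRNA and choose the start codon, the copies of eIF2 alpha moved in opposite directions in mutants. So did the eIF1 rows *eif1b* and *EIF1B*. In both pairs the more abundant row was lower and the lesser row higher, whereas both copies of eIF1A were higher. *eif2s1a* (ENSDARG00000005827), one of a pair of genes for the alpha subunit of eIF2 that is phosphorylated under stress, had 27.9, 26.4 and 29.5 RPKM in mutants, 17.8, 21.6 and 22.4 RPKM in morphants and 11.9, 5.14 and 6.88 RPKM in wild type. Both perturbed groups lay above every wild-type library. Its log2 fold change was 1.88 ± 0.26 (SE; limma's adjusted p = 0.000605) in mutants and 1.44 ± 0.26 (adjusted p = 0.0029) in morphants, and both calls held under each of the 22 alternative settings tried. Its partner *eif2s1b* had 71.6 to 74.8 RPKM in mutants, 95.9 to 107 RPKM in morphants and 104 to 141 RPKM in wild type, an adjusted p of 0.000928 for mutants against wild type and a difference of less than 2-fold. *eif2s2*, the beta subunit and the most abundant of the 4 eIF2 genes, had 152, 149.6 and 144 RPKM in mutants, 214, 184 and 214 RPKM in morphants and 242, 309 and 296 RPKM in wild type. The groups did not overlap, and the log2 fold change of −0.92 ± 0.11 in mutants (adjusted p = 0.000267) stayed under 2-fold. *eif2s3*, the gamma subunit that holds GTP and the tRNA, had 123 to 124 RPKM in mutants, 151 to 183 RPKM in morphants and 142 to 218 RPKM in wild type.

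Of the 6 genes of start codon choice, *eif1axb* (ENSDARG00000057912) and *eif1axa* encode eIF1A, which helps the small subunit scan. *eif1axb* had 59.2, 58.7 and 59.3 RPKM in mutants, 40.7, 42.9 and 33.7 RPKM in morphants and 32.5, 23.01 and 20.1 RPKM in wild type, in descending order of groups with no overlap. It was called higher in mutants (log2 fold change 1.26 ± 0.17, adjusted p = 0.000511), whereas the difference between mutants and morphants, 0.60 ± 0.17, passed on the adjusted p of 0.0429 but not on size. *eif1axa* had 23.4, 21.6 and 21.3 RPKM in mutants, 28.8, 26.9 and 19.9 RPKM in morphants and 8.51, 12.2 and 17.8 RPKM in wild type. It was called higher in morphants only just (1.01 ± 0.24, adjusted p = 0.011), and the call was lost in 7 of 22 alternatives, among them those without wild-type replicate 1 (0.75) and without morphant replicate 1 or 2 (0.91 and 0.96). For eIF1, which keeps the ribosome from stopping at a wrong codon, the table holds an abundant row *eif1b* and a lesser row *EIF1B*. *eif1b* had 203, 205 and 204 RPKM in mutants, 332, 278 and 361 RPKM in morphants and 339.6, 390.5 and 435 RPKM in wild type, the lesser row 58.8, 62.9 and 58.5 RPKM, 63.1, 62.3 and 71.3 RPKM and 38.3, 30.1 and 31.2 RPKM in the same groups. The 2 rows moved in opposite directions in mutants, by −0.92 ± 0.12 (adjusted p = 0.000459) for the abundant and 0.86 ± 0.11 (adjusted p = 0.000357) for the lesser row, each under 2-fold. *eif5*, the factor that triggers GTP hydrolysis by eIF2, was lower in mutants on the adjusted p (−0.63 ± 0.076, 0.000289), with 63.3 to 65.7 RPKM in mutants, 94.99 to 102 RPKM in morphants and 93.8 to 107 RPKM in wild type. This direction turned to 0.10 when library read totals replaced the normalized sizes. *eif1ad*, which shares a domain with eIF1A, had 5.38 to 7.82 RPKM in mutants, 1.84 to 5.06 RPKM in morphants and 1.81 to 4.77 RPKM in wild type and did not pass.

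The exchange factor eIF2B, which recharges eIF2 with GTP, had 3 of its 7 rows called lower and 1 called higher in mutants. Of all genes tested, 12.1% were called lower and 10.4% higher. *eif2b2* (ENSDARG00000041397), the beta subunit, had 20.997, 19.7 and 20.3 RPKM in mutants, 35.02, 26.2 and 30.4 RPKM in morphants and 45.4, 40.7 and 57.2 RPKM in wild type. *eif2b3*, the gamma subunit, had 10.6, 11.9 and 10.2 RPKM in mutants, 14.6, 15.6 and 12.99 RPKM in morphants and 21.1, 32.5 and 22.7 RPKM in wild type. For both genes the mutant libraries lay below all morphant libraries and these below all wild-type libraries. The log2 fold changes in mutants were −1.21 ± 0.14 (adjusted p = 0.000273) and −1.20 ± 0.17 (adjusted p = 0.000641). Of the catalytic epsilon subunit, *eif2b5* had 10.4, 12.7 and 11.8 RPKM in mutants, 22.7, 18.4 and 18.4 RPKM in morphants and 21.7, 21.8 and 26.1 RPKM in wild type, and missed the 2-fold limit narrowly (−0.99 ± 0.13, adjusted p = 0.000529), which it passed in 8 of 22 alternatives. A second row, *EIF2B5 (2 of 2)*, has a gene length of only 234 bases, so it may hold a fragment of a gene model. It had 10.8, 10.51 and 9.56 RPKM in mutants, 25.6, 20.3 and 20.1 RPKM in morphants and 14.95, 29.8 and 30.98 RPKM in wild type, where replicate 1 was well below the other 2 libraries. It was called lower in mutants than in wild type (−1.21 ± 0.25, adjusted p = 0.00542). It was also the only factor called lower in mutants than in morphants (−1.08 ± 0.25, adjusted p = 0.0217), a call lost in 8 of 22 alternatives, including those without any one mutant replicate and without morphant replicate 1 or 3 (adjusted p 0.0566 to 0.0842). *eif2b4*, the delta subunit, had 13.8 to 15.9 RPKM in mutants, 15.4 to 19.4 RPKM in morphants and 18.7 to 21.04 RPKM in wild type.

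The alpha subunit gene *eif2b1* is present as 2 rows of the same length, 867 bases, between which reads could be split. The row called higher in mutants (ENSDARG00000091402) rested on 53, 61 and 55 reads in mutants, 10, 27 and 7 reads in morphants and 2, 1 and 2 reads in wild type. Its wild-type levels of 0.237 to 0.475 RPKM were all under the filter of 0.5 RPKM. The row thus passed only through mutants and morphants, where it is high, and its higher calls are given as a description. From the summed reads its level was 6.60 times that of wild type in mutants (95% exact counting interval 2.77 to 20.6) and 3.74 times in morphants (1.49 to 12.1). These intervals cover counting error only and leave out the spread between pools. They belong to a row that passed through these groups, so they too are a description. The other row held 33, 17 and 31 reads in mutants, 28, 46 and 47 reads in morphants and 0, 6 and 8 reads in wild type. Summed over both rows, *eif2b1* stood at 3.54 to 3.76 RPKM in mutants, 4.04 to 7.69 RPKM in morphants and 0.475 to 2.04 RPKM in wild type. In this sum both perturbed groups lay above wild type, on few wild-type reads. It includes the row that passed through the groups where it is high, so it is a description and no support. The other row alone had 0.804 to 1.36 RPKM in mutants, 2.97 to 6.70 RPKM in morphants and 0 to 1.63 RPKM in wild type. For that row mutants and wild type overlapped. The higher call of the first row in morphants (adjusted p = 0.0135) was lost in 5 of 20 alternatives, among them that without morphant replicate 2 (adjusted p = 0.0501).

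The kinases that phosphorylate eIF2 alpha were read at low levels. *eif2ak1*, the heme-regulated kinase, had 5.41 to 5.95 RPKM in mutants, 7.35 to 9.52 RPKM in morphants and 4.11 to 7.32 RPKM in wild type. *eif2ak3*, the endoplasmic reticulum stress kinase PERK, had 5.40 to 6.73 RPKM in mutants, 5.60 to 7.50 RPKM in morphants and 3.11 to 5.28 RPKM in wild type, an adjusted p of 0.0552 in mutants and of 0.0243 in morphants. *eif2ak2*, the kinase activated by double-stranded RNA, had 1.17 to 2.56 RPKM in mutants, 0.548 to 1.68 RPKM in morphants and 2.18 to 3.54 RPKM in wild type (adjusted p = 0.329 in mutants), and *eif2ak4*, the amino acid sensor GCN2, was listed at 0 in all 9 libraries. Among proteins that can bring the initiator tRNA without eIF2, *eif2a* (ENSDARG00000044479) had 9.49, 10.4 and 8.95 RPKM in mutants, 15.8, 13.8 and 16.9 RPKM in morphants and 21.6, 20.9 and 23.8 RPKM in wild type. It was called lower in mutants (−1.19 ± 0.12, adjusted p = 9.86e-05) with every library apart. *eif2d* had 5.24 to 7.39 RPKM in mutants, 7.88 to 11.01 RPKM in morphants and 5.67 to 13.9953 RPKM in wild type, where the groups overlapped.

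The scaffold eIF3 is the largest group, with 19 rows of which 18 were tested. In mutants 4 were called lower and 1 higher, beside 12.1% and 10.4% of all genes. On the adjusted p alone 10 were lower and 3 higher, beside 18.2% and 17.8% of all genes. The 4 called lower all averaged 100 RPKM or more, where 45.9% of all genes were called lower. *eif3ea* (ENSDARG00000090697), the most abundant, had 179.6, 174 and 181 RPKM in mutants, 264, 233 and 275 RPKM in morphants and 326, 367 and 381 RPKM in wild type. *eif3i*, which sits near the mRNA entry channel with eIF3b and eIF3g, had 148, 147 and 151 RPKM in mutants, 266, 233 and 289 RPKM in morphants and 318, 326 and 412 RPKM in wild type. *eif3s6ip*, an older name for the eIF3l subunit, had 84.4, 86.6 and 83.2 RPKM in mutants, 177, 138 and 176 RPKM in morphants and 187, 207 and 242 RPKM in wild type. In each of these 3 genes the mutant libraries were close together and the lowest, and the wild-type libraries the highest. The log2 fold changes in mutants were −1.004 ± 0.092 (adjusted p = 7.59e-05), −1.23 ± 0.12 (adjusted p = 9.25e-05) and −1.31 ± 0.12 (adjusted p = 8.35e-05). The call of *eif3ea* stood at the 2-fold limit and was lost in 7 of 22 alternatives, with values of −0.98 without wild-type replicate 2, −0.96 without wild-type replicate 3 and −0.99 without mutant replicate 2. *eif3ha* had 65.95, 68.03 and 67.2 RPKM in mutants, 94.02, 72.99 and 104 RPKM in morphants and 129, 154 and 179 RPKM in wild type and was the fourth called lower (−1.18 ± 0.15, adjusted p = 0.000381).

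Not all eIF3 genes were lower. *eif3jb* (ENSDARG00000053370) encodes eIF3j, a loosely bound subunit that occupies the decoding site, and had 23.4, 23.3 and 24.8 RPKM in mutants, 12.9, 17.9 and 12.1 RPKM in morphants and 5.33, 7.28 and 4.92 RPKM in wild type. Every mutant library lay above every morphant library and these above wild type. It was called higher in mutants (2.03 ± 0.18, adjusted p = 7.37e-05) and in morphants (1.28 ± 0.18, adjusted p = 0.00112), and between the perturbed groups it differed by 0.75 ± 0.18 (adjusted p = 0.0268), under 2-fold. Its copy *eif3ja* had 14.5, 14.4 and 13.5 RPKM in mutants, 9.73, 12.8 and 10.2 RPKM in morphants and 5.95, 8.87 and 7.76 RPKM in wild type, a change of 0.91 ± 0.17 in mutants (adjusted p = 0.00287). *eif3s10*, an older name for the core subunit eIF3a, had 92.2, 93.2 and 87.5 RPKM in mutants, 89.1, 84.3 and 82.5 RPKM in morphants and 51.2, 51.2 and 61.6 RPKM in wild type. It was higher in mutants by 0.74 ± 0.09 (adjusted p = 0.000323), again under 2-fold, and overlapped between mutants and morphants. The remaining abundant subunits, *eif3f*, *eif3m*, *eif3ba*, *eif3g*, *eif3c* and *eif3d*, had log2 fold changes between −0.88 and −0.54 in mutants, each with an adjusted p under 0.05 and mutant libraries below all wild-type libraries. With library read totals *eif3f*, *eif3m* and *eif3ba* turned to 0.195, 0.165 and 0.0015. *eif3k* had 54.2 to 61.97 RPKM in mutants, 56.1 to 68.7 RPKM in morphants and 46.7 to 72.7 RPKM in wild type. The minor copies *eif3bb*, *eif3eb* and both rows of *eif3hb* did not pass, and one more eIF3j row, *EIF3J (3 of 3)*, was listed at 0.

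Of the 7 genes for cap-binding eIF4E proteins, 3 were called higher and 1 lower in mutants, beside 10.4% and 12.1% of all genes. *eif4ea* (ENSDARG00000077012), one of a pair of eIF4E genes, had 14.1, 13.4 and 12.2 RPKM in mutants, 12.2, 13.2 and 9.09 RPKM in morphants and 2.77, 6.09 and 6.002 RPKM in wild type. *eif4e1c*, a form of eIF4E known from fish, had 33.4, 33.3 and 32.01 RPKM in mutants, 27.8, 34.3 and 27.8 RPKM in morphants and 14.1, 14.03 and 18.6 RPKM in wild type. *eif4e3*, a divergent member of the family, had 18.9, 16.8 and 17.5 RPKM in mutants, 11.2, 16.9 and 13.7 RPKM in morphants and 5.20, 4.41 and 6.46 RPKM in wild type. In all 3 genes both perturbed groups lay above wild type and overlapped each other. The log2 fold changes in mutants were 1.48 ± 0.29 for *eif4ea* (adjusted p = 0.00384), 1.09 ± 0.13 for *eif4e1c* (0.000326) and 1.72 ± 0.18 for *eif4e3* (0.000158). In morphants they were 1.26 ± 0.29 (0.00862), 0.95 ± 0.13 (0.000977, under 2-fold) and 1.36 ± 0.18 (0.000826). The *eif4ea* call in morphants fell to 0.90 without wild-type replicate 1, the library with 19 reads on this gene. *eif4eb* had 10.2 to 11.4 RPKM in mutants, 8.88 to 10.48 RPKM in morphants and 8.70 to 10.98 RPKM in wild type, with overlap. *eif4e2*, which binds the cap without recruiting eIF4G and represses translation, had 8.45, 8.51 and 9.47 RPKM in mutants, 7.50, 8.48 and 7.01 RPKM in morphants and 14.7, 12.9 and 10.6 RPKM in wild type, while *eif4e2rs1*, named as its related sequence, had 20.7, 21.5 and 21.9 RPKM in mutants, 20.5, 20.1 and 21.8 RPKM in morphants and 11.3, 8.87 and 12.9 RPKM in wild type. The first had a log2 fold change of −0.52 ± 0.15 in mutants (0.0241) and −0.72 ± 0.15 in morphants (0.00575), and the other one of 0.97 ± 0.13 (0.00064) and 0.93 ± 0.13 (0.0011), all under 2-fold. With library read totals the mutant value of *eif4e2* turned to 0.21.

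*eif4e1b* (ENSDARG00000014565), a form of eIF4E known from eggs and germ cells, was near the limit of detection. It held 12, 6 and 4 reads in mutants, 0 reads in each morphant library and 16, 12 and 9 reads in wild type, equal to 0.46, 0.264 and 0.163 RPKM in mutants and 3.54, 2.64 and 1.71 RPKM in wild type. It was called lower in mutants (−2.80 ± 0.51, adjusted p = 0.00292) and was the only factor called lower in morphants (adjusted p = 0.000306). It passed the filter on low values only through the 3 wild-type libraries, the group where it is high, so these calls had to point downwards and are given as a description. Taking 3 reads as the floor of a library, the wild-type mean was 6.61 times the highest morphant floor. This too rests on the wild-type values by which the gene passed and is a description. Without any one wild-type replicate the gene no longer passed the filter and was not tested, and without replicate 3 *eif3bb* was called lower in morphants in its place (−1.45, adjusted p = 0.0410). It was also the only factor called higher in mutants than in morphants (adjusted p = 0.0377), a call lost in 12 of 17 alternatives, without any single mutant or morphant replicate among them (adjusted p 0.0685 to 0.166). No fold is given there, since the mutant levels were near the morphant floors of 0.187 to 0.398 RPKM.

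Of the 5 genes that restrain eIF4E, *eif4ebp2* (ENSDARG00000031819), a 4E-BP, had 95.8, 89.3 and 92.7 RPKM in mutants, 88.2, 98.6 and 97.6 RPKM in morphants and 39.7, 33.8 and 45.6 RPKM in wild type. The perturbed groups overlapped at more than 2 times the wild-type level, with log2 fold changes of 1.23 ± 0.11 in mutants (adjusted p = 6.76e-05) and 1.26 ± 0.11 in morphants (adjusted p = 0.000102), held under all 22 alternatives. *eif4ebp3l*, another 4E-BP, had 22.3, 25.1 and 26.4 RPKM in mutants, 34.5, 40.4 and 43.9 RPKM in morphants and 16.9, 18.7 and 12.4 RPKM in wild type, and here morphants were the highest. It was called higher in morphants (1.32 ± 0.16, adjusted p = 0.00052) and was under 2-fold in mutants (0.64 ± 0.16, adjusted p = 0.0133). *eif4ebp1* had 43.9 to 53.2 RPKM in mutants, 59.7 to 64.5 RPKM in morphants and 42.2 to 47.4 RPKM in wild type, and *eif4ebp3* 3.99 to 5.52 RPKM, 5.09 to 10.4 RPKM and 5.35 to 9.77 RPKM in these groups. *eif4enif1*, the transporter 4E-T that carries eIF4E into the nucleus and to processing bodies, had 6.17 to 6.78 RPKM in mutants, 9.08 to 11.01 RPKM in morphants and 7.30 to 11.01 RPKM in wild type.

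**Figure D2:**
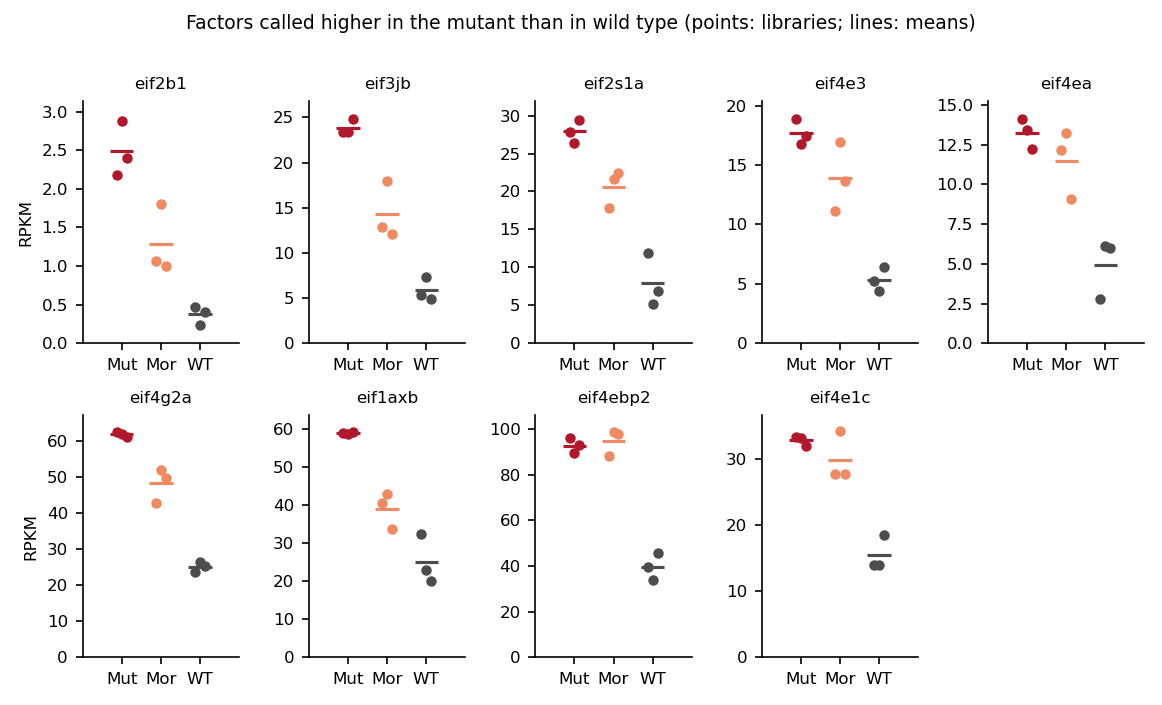
RPKM (vertical axis, from 0) of the 9 factors called higher in mutants than in wild type, with 1 point per library, a line at each group mean, and mutant (Mut), morphant (Mor) and wild-type (WT) libraries from left to right. In every panel all 3 mutant points lie above all 3 wild-type points, but the factors were chosen by this comparison. Of all genes tested, called or not, 25.0% had mutant libraries above all wild-type libraries. *eif2b1* (the row ENSDARG00000091402) is at the scale of single reads in wild type.

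The scaffold eIF4G had 1 of 5 tested rows called higher in mutants, beside 10.4% of all genes. *eif4g2a* (ENSDARG00000020377) encodes DAP5, an eIF4G relative without the eIF4E-binding part that serves cap-independent initiation, and had 62.7, 62.1 and 61.3 RPKM in mutants, 43.0047, 52.1 and 49.9 RPKM in morphants and 23.6, 26.6 and 25.3 RPKM in wild type. The 3 groups were apart from one another. The change was 1.30 ± 0.092 in mutants (adjusted p = 2.55e-05), 0.93 ± 0.092 in morphants (adjusted p = 0.000192) and 0.36 ± 0.092 in mutants over morphants (adjusted p = 0.0305). Its copy *eif4g2b* had 56.8, 54.8 and 56.6 RPKM in mutants, 74.2, 75.3 and 80.9 RPKM in morphants and 48.2, 58.5 and 58.8 RPKM in wild type, with mutants and wild type overlapping. *EIF4G1 (1 of 3)*, the main eIF4G, had 30.4 to 31.1 RPKM in mutants, 33.5 to 37.9959 RPKM in morphants and 25.7 to 29.2 RPKM in wild type, and *EIF4G1 (2 of 3)* was listed at 0. *eif4g3b* ranged from 6.65 to 7.34 RPKM in mutants, 7.19 to 9.95 RPKM in morphants and 6.51 to 9.38 RPKM in wild type, *EIF4G3 (2 of 2)* from 6.14 to 6.56 RPKM, 6.69 to 9.14 RPKM and 4.20 to 10.9 RPKM. Neither passed.

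The helicase genes differed by less than 2-fold between mutants and wild type. *eif4a1b*, the abundant gene for the helicase eIF4A, had 188, 192 and 195 RPKM in mutants, 278, 242 and 309 RPKM in morphants and 313, 356 and 415 RPKM in wild type (−0.91 ± 0.12 in mutants, adjusted p = 0.000565). Its copy *eif4a1a* had 58.1, 55.3 and 56.2 RPKM in mutants, 74.2, 66.8 and 75.5 RPKM in morphants and 40.2, 50.5 and 52.5 RPKM in wild type, so that wild type was the lowest group for this copy and the highest for the other. *eif4a2* had 11.2 to 11.9 RPKM in mutants, 13.98 to 15.03 RPKM in morphants and 8.46 to 11.3 RPKM in wild type. *eif4a3*, a relative that works in the exon junction complex rather than in initiation, had 49.6 to 55.99 RPKM in mutants, 82.1 to 89.7 RPKM in morphants and 84.3 to 109.7 RPKM in wild type. The helpers of the helicase, *eif4bb*, *eif4ba* and *eif4h*, were each lower in mutants than in wild type on the adjusted p, with log2 fold changes from −0.60 to −0.34, and had adjusted p-values of 0.108 to 0.446 in morphants. With library read totals their mutant values turned to 0.39 for *eif4bb*, 0.12 for *eif4ba* and 0.32 for *eif4h*.

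eIF5A, which despite its name acts mainly when ribosomes stall in elongation and at termination, was the most abundant factor. *eif5a* (ENSDARG00000017235) had 239.7, 239.5 and 238 RPKM in mutants, 437, 339 and 455 RPKM in morphants and 536, 621 and 693 RPKM in wild type. *eif5a2* (ENSDARG00000056186) had 164, 166 and 159 RPKM in mutants, 199, 202 and 197 RPKM in morphants and 95.97, 98.2 and 102 RPKM in wild type. The major gene was lowest in mutants and the minor gene lowest in wild type, and all 3 groups were apart for both. *eif5a* was called lower in mutants (−1.36 ± 0.13, adjusted p = 0.0001), and was lower under 2-fold in morphants (−0.59 ± 0.13, adjusted p = 0.00818) and in mutants against morphants (−0.77 ± 0.13, adjusted p = 0.00581). *eif5a2* was called higher in morphants (1.01 ± 0.066, adjusted p = 2.72e-05) at the 2-fold limit, which it missed without wild-type replicate 1 (0.99), and was higher in mutants by 0.72 ± 0.066 (adjusted p = 7.63e-05). *eif5b*, the GTPase that joins the ribosomal subunits, had 22.2 to 25.1 RPKM in mutants, 22.3 to 26.9 RPKM in morphants and 24.6 to 28.9 RPKM in wild type. *eif6*, which keeps the large subunit from joining too early, had 17.7 to 21.4 RPKM in mutants, 27.2 to 32.8 RPKM in morphants and 22.5 to 35.6 RPKM in wild type and an adjusted p of 0.0488 in mutants.

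**Figure D3:**
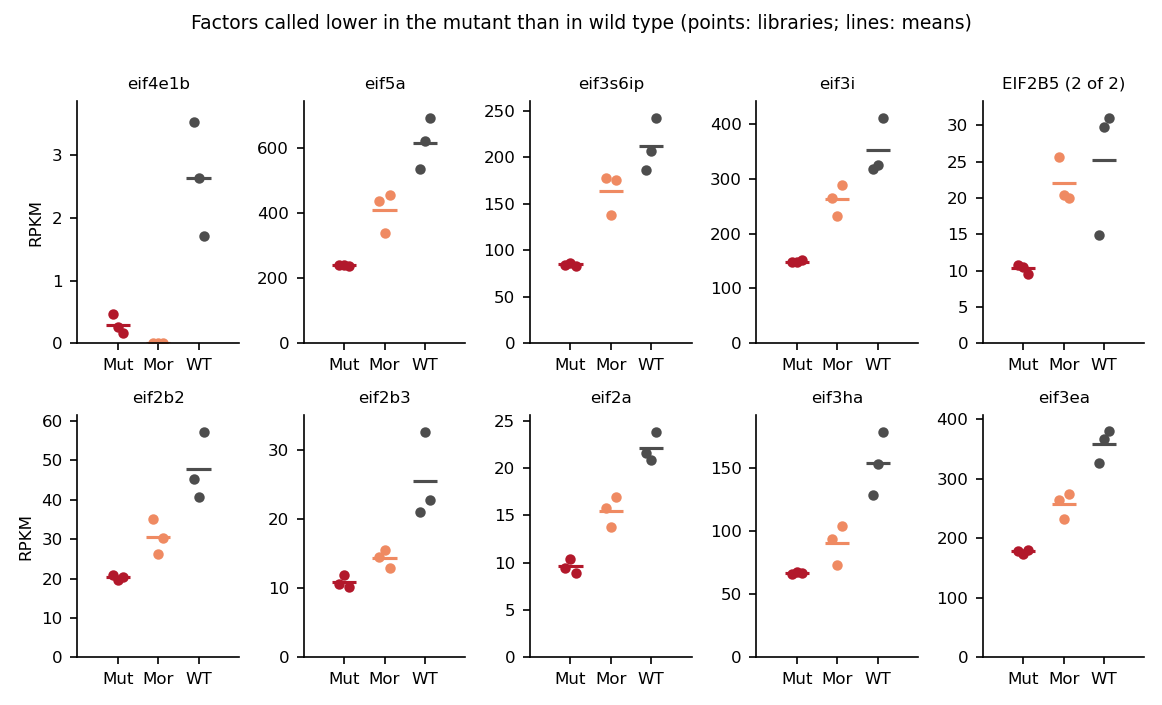
RPKM (vertical axis, from 0) of the 10 factors called lower in mutants than in wild type, with 1 point per library and a line at each group mean, for mutant (Mut), morphant (Mor) and wild-type (WT) libraries from left to right. Mutant points lie below wild-type points in every panel, but the factors were chosen by this comparison. Of all genes tested, called or not, 27.6% had mutant libraries below all wild-type libraries. In all but *eif4e1b* the morphant mean is between the other 2 means, as for 39.1% of all genes and 73.7% of those averaging 100 RPKM or more.

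The balance within pairs of copies was described by shares. For 15 pairs chosen by gene name, drawn up after the levels were seen, the share of the less abundant copy in the summed RPKM of its pair was compared between groups. This is a ratio within a library that no library-size factor can move. Left out were the 2 *eif2b1* rows, *eif2b5* with *EIF2B5 (2 of 2)*, and the *eif3hb* row ENSDARG00000033865, so the counts depend on the choice of pairs. The less abundant copy is the one with the lower mean RPKM over all 9 libraries, mutants and morphants included. Copy is used loosely here. By symbol *eif1b* is EIF1, *EIF1B* is EIF1B and *eif5a2* is EIF5A2, so those pairs join related genes rather than duplicates of a single gene. Its share was higher in every mutant library than in every wild-type library for 8 pairs, lower for 4, and overlapped for 3. The rates of single genes are not rates for a ratio of 2 genes, so these numbers stand as a description. In an exact permutation test of each pair's log2 ratio, the smallest p for mutants against wild type was 0.1. With 3 against 3 libraries that test can give no smaller p, so it cannot decide on any pair. The share of *eif5a2* was 39.99% to 41.0% in mutants, 30.2% to 37.4% in morphants and 12.9% to 15.2% in wild type. That of *eif2s1a* was 26.8% to 28.2% in mutants, 15.7% to 18.3% in morphants and 3.51% to 10.3% in wild type. That of *EIF1B* was 22.3% to 23.5% in mutants, 15.96% to 18.3% in morphants and 6.69% to 10.1% in wild type. In these 3 pairs the groups were ordered alike, with morphants between mutants and wild type and no overlap. *eif4g2a* rose above its copy, with a share of 52.0% to 53.1% in mutants, 36.7% to 40.9% in morphants and 30.1% to 32.9% in wild type. *eif4ea* had 51.7% to 56.7% in mutants, 46.4% to 59.6% in morphants and 20.1% to 41.2% in wild type, and *eif4a1a* 22.3% to 23.6%, 19.6% to 21.6% and 11.2% to 12.4% in these groups. The other 2 of the 8, *eif3eb* and *eif3hb* (row ENSDARG00000036116), had lower levels of the abundant copy in mutants, and for *eif3eb* the log2 difference of 0.85 turned to −0.16 under cyclic loess, which adjusts for level. Under loess the difference was also smaller for *eif3hb* (0.13 in place of 0.76), *eif4a1a* (0.59 in place of 1.16) and *EIF1B* (1.13 in place of 1.78). The same held for *eif2s1a* (2.13 in place of 2.68), *eif5a2* (1.72 in place of 2.08), *eif4g2a* (1.15 in place of 1.27) and, slightly, *eif4ea* (1.33 in place of 1.34). It was larger for *eif4ba* (−0.598 in place of −0.26), *eif4ebp3* (−1.48 in place of −1.27), *eif4e2* (−1.57 in place of −1.48) and, slightly, *eif3ja* (−1.14 in place of −1.12). The 4 pairs in which the copy with the lower mean lost share were *eif4e2*, *eif3ja*, *eif4ebp3* and *eif4ba*. *eif4e2* had 28.4% to 30.2% of its pair in mutants, 24.4% to 29.7% in morphants and 45.1% to 59.3% in wild type. *eif3ja* had 35.2% to 38.2% in mutants, 41.6% to 45.9% in morphants and 52.8% to 61.2% in wild type. Thus *eif3ja* in all wild-type libraries, and *eif4e2* in wild-type replicates 1 and 2, was the larger copy of its pair. Copies with similar sequence can share reads, and the counting options are not given, so the shares rest on how reads were assigned.

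**Figure D4:**
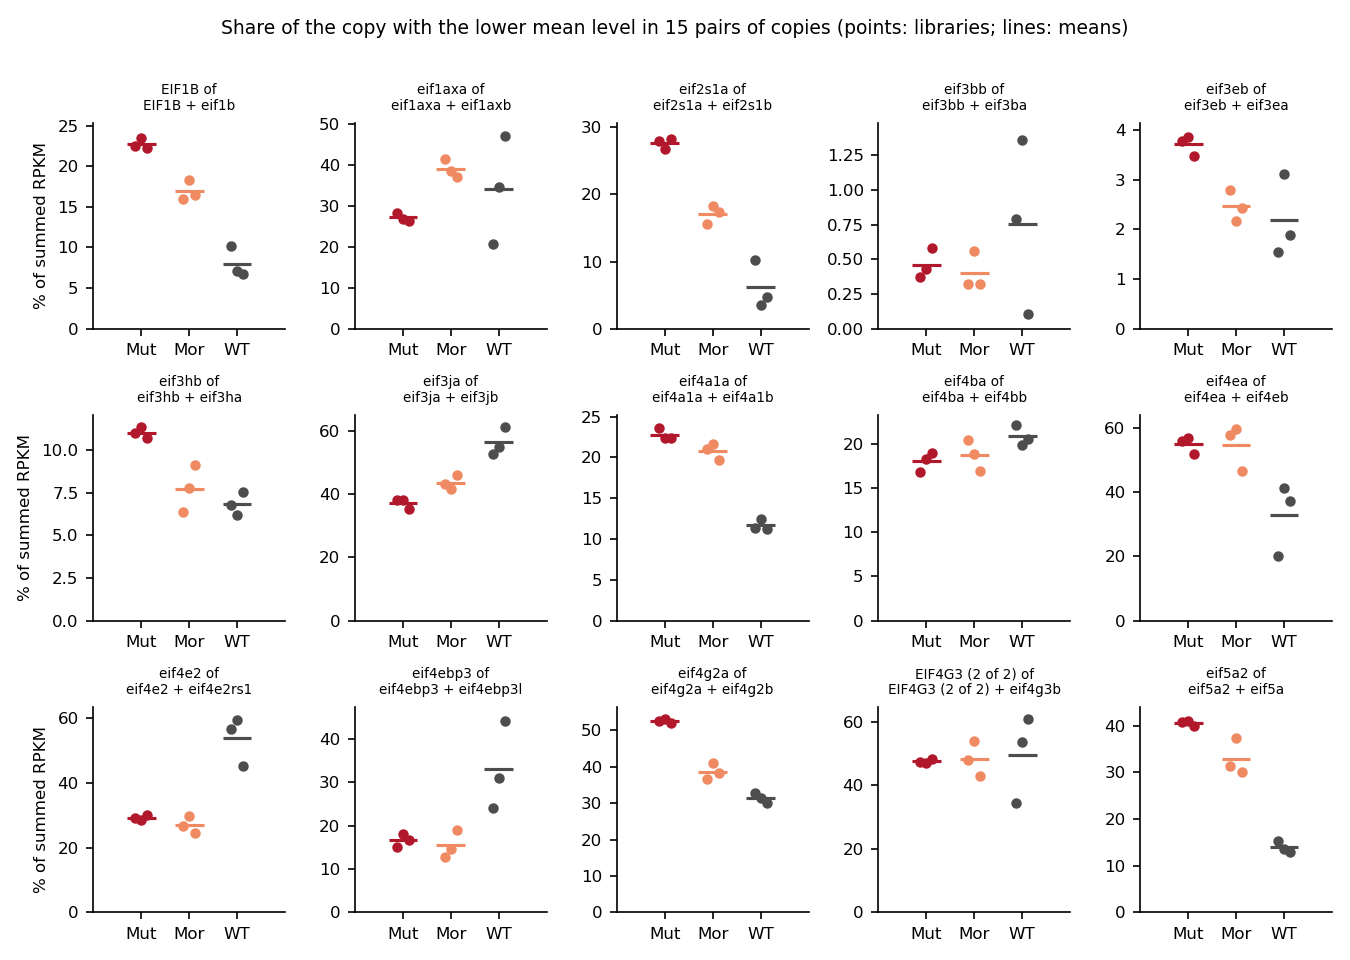
Share of the less abundant copy in the summed RPKM of each of 15 pairs (vertical axis, percent, from 0), with 1 point per library, a line at each group mean, and mutant (Mut), morphant (Mor) and wild-type (WT) libraries from left to right. The less abundant copy is that with the lower mean over all libraries. On the log2 scale the largest separations of mutants from wild type are those of *eif5a2*, *eif2s1a* and *EIF1B*, whose mutant shares of 39.99% to 41.0%, 26.8% to 28.2% and 22.3% to 23.5% lie above all wild-type points.

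Summed over roles, eIF3, eIF2 and eIF2B were among those lowest in mutants, with eIF4A, eIF5A and the other tRNA carriers. The sums of eIF4E, its inhibitors and eIF4G were lowest in wild type. The eIF3 rows summed to 1402 to 1417 RPKM in mutants, 1786 to 2156 RPKM in morphants and 2098 to 2730.1 RPKM in wild type, the eIF2 rows to 372 to 375 RPKM, 453 to 527 RPKM and 501 to 660.1 RPKM, and the eIF2B rows to 70.1 to 73.6 RPKM, 104 to 121 RPKM and 122 to 160.1 RPKM. The eIF4E rows summed to 104 to 107 RPKM in mutants, 88.1 to 102 RPKM in morphants and 57.7 to 66.3 RPKM in wild type, the eIF4E inhibitors to 174 to 179.6 RPKM, 202 to 223 RPKM and 111 to 123 RPKM, and the eIF4G rows to 161 to 164 RPKM, 172 to 184 RPKM and 111 to 131 RPKM. The sums depended on the library size. With the reads on genes as library size, without the normalization factor, the eIF3 sum was 1845 to 1853 in mutants, 1904 to 1963 in morphants and 1803 to 2012 in wild type, and the eIF2 sum 486 to 494, 471 to 483 and 430.3 to 502, so both overlapped. The eIF2B sum stayed below wild type in mutants, at 92.3 to 96.3, with 93.8 to 115 in morphants and 105 to 118 in wild type. So did the eIF5A sum, at 521 to 532 in mutants, 577 to 602 in morphants and 543 to 586 in wild type. The sum of the other tRNA carriers also did, at 18.6 to 22.97, 23.1 to 25.3 and 23.4 to 27.9 in these groups. The sums of 3 other roles turned from below to above wild type. The start codon rows summed to 412 to 420.3 RPKM in mutants, 510.1 to 588 RPKM in morphants and 518 to 615 RPKM in wild type, but with read totals to 539.6 to 549.5, 526 to 544 and 433 to 453. The eIF4B and eIF4H rows summed to 77.96 to 79.2 RPKM in mutants, 88.03 to 98.5 RPKM in morphants and 98.9 to 112 RPKM in wild type, but then to 102 to 104, 88.1 to 93.9 and 79.3 to 85.01. The eIF5B and eIF6 rows summed to 42.8 to 44.3 RPKM in mutants, 52.1 to 55.1 RPKM in morphants and 47.1 to 64.6 RPKM in wild type, but then to 56.4 to 58.02, 48.4 to 55.5 and 40.5 to 47.6. The eIF4E sum was then 136 to 141 in mutants, 80.3 to 109 in morphants and 44.8 to 53.8 in wild type. In the same way all 71 factors together took 1.08% to 1.098% of the reads in mutants, 1.05% to 1.08% in morphants and 0.903% to 0.974% in wild type, whereas their summed RPKM was 3566 to 3601, 4475 to 5211 and 4788 to 6094.5 in these groups. Against read totals the median log2 fold change of all genes in mutants was 0.68, and 9 of the 10 factors called lower were no longer called (18 were called higher). The lower call that stayed was that of *eif4e1b*, which passed the filter only through wild type. The changes of *eif2b2*, *eif2b3* and *eif2a* shrank to −0.48, −0.47 and −0.47. Of the 30 factors that were lower on the adjusted p, 19 stayed below 0. All 30 stayed below that median, but a library-size factor moves all genes of a library nearly alike. Their place relative to the median could therefore hardly change, and nothing is drawn from it. Quantile normalization and cyclic loess each ended the lower calls of *eif3ea*, *eif3ha*, *eif3i*, *eif3s6ip* and *eif5a*. Cyclic loess also ended the calls of *eif4e1b* and *eif4e1c* in mutants and those of *eif3jb*, *eif4e3*, *eif4ea*, *eif4ebp3l* and *eif1axa* in morphants.

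The fold change of the factors differed between levels, without a steady trend across them. Of the 17 factors that averaged 100 RPKM or more, 16 were lower in mutants on the adjusted p and 5 were called lower (94.1% and 29.4%), beside 404 and 255 of all 556 genes at this level (72.7% and 45.9%). Their median log2 fold change was −0.88. *eif5a2* was the exception. Those 556 genes had a median of −0.92, and 80.6% of them were below 0, so abundant genes as a whole were lower in mutants too. Between 30 and 100 RPKM the median was 0.09 for 15 factors and −0.08 for 1066 genes, and between 10 and 30 RPKM 0.16 for 18 factors and 0.18 for 3148 genes. Between 2 and 10 RPKM the 13 factors had a median of −0.18 and all 9518 genes one of 0.24. Under 2 RPKM the median was −0.63 for 5 factors and −0.61 for 7694 genes. Across the 68 factors the Spearman correlation between mean level and fold change was −0.35, across all genes 0.25, both as descriptions over genes that share the libraries. Within groups, too, the abundant factors moved together. Wild-type replicate 1 was the lowest wild-type library for all 17 and replicate 3 the highest for 15, as they were for 518 and 497 of the 556 genes, and replicate 1 has the largest and replicate 3 the smallest normalized size relative to its read total.

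**Figure D5:**
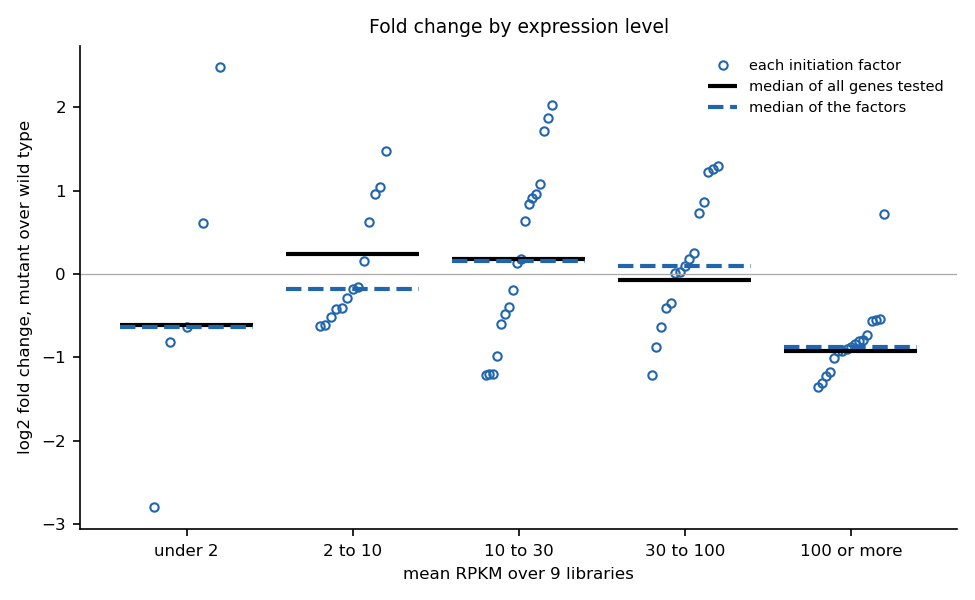
Log2 fold change in mutants over wild type (vertical axis) of each tested factor, in 5 bands of mean RPKM over the 9 libraries (horizontal axis), with the median of the factors and of all genes tested in each band. At 100 RPKM or more the 2 medians are −0.88 and −0.92, and in the bands from 10 to 100 RPKM both are near 0 while single factors spread on both sides.

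Mutants and morphants were also compared directly. The morphants were injected, and no library is labelled as a control injection. Permanent against acute loss of *cep290* therefore cannot be told apart from injection, genetic background or read depth. Of the 68 factors 1 was called higher and 1 lower in mutants than in morphants, against 3.48% and 2.4% of all genes, and these were *eif4e1b* and *EIF2B5 (2 of 2)*. On the adjusted p alone 4 were higher and 23 lower, against 5.28% and 8.33% of all genes. The share that was lower rose with level for all genes too. At 100 RPKM or more 13 of 17 factors were lower (76.5%), beside 61.0% of all 556 genes. Between 30 and 100 RPKM 5 of 15 factors were lower (33.3%), beside 34.2% of all genes, and between 10 and 30 RPKM 4 of 18 (22.2%), beside 20.1%. Of the 23, *EIF2B5 (2 of 2)* differed most, followed by *eif3s6ip* with −0.94 ± 0.12 (adjusted p = 0.00175) and *eif3i* with −0.81 ± 0.12 (adjusted p = 0.0027). The morphant mean was between the mutant and wild-type means for 44 of 68 factors (64.7%), against 39.1% of all genes. At 100 RPKM or more it was between them for 15 of 17 factors and for 410 of 556 genes. The eIF4E genes other than *eif4e1b* had log2 fold changes of 0.04 to 0.36 in mutants over morphants, with adjusted p-values of 0.231 to 0.886, where 58.4% of all genes were above 0. Of the inhibitors *eif4ebp3l*, *eif4enif1* and *eif4ebp1* were lower in mutants on the adjusted p, by −0.68, −0.60 and −0.36, the last turning to 0.077 with read totals.

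Over the 9 libraries, the factors most like *eif3jb*, the gene with the largest rise among those averaging 10 RPKM or more, were *eif4g2a* (Pearson's r of log2 values 0.98), *eif3ja* (0.95) and the called *eif2b1* row (0.94), given as a description of libraries that form 3 groups.

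Genes that work beside the factors were taken from a list of 48 symbols for elongation, termination, poly(A) binding and the upstream kinases, of which 37 were tested. In mutants 4 were called higher and 7 lower (10.8% and 18.9%, beside 10.4% and 12.1% of all genes), with a median of −0.38. In morphants 6 were called higher and 3 lower (16.2% and 8.11%, beside 7.45% and 14.9%), with a median of 0.04, and in mutants against morphants 2 were called lower (5.41%, beside 2.4%), with a median of −0.33. The elongation factors *eef2b*, which moves the ribosome along, and *eef1b2*, an exchange factor for eEF1A, were called lower in mutants, with log2 fold changes of −1.92 ± 0.17 (adjusted p = 6.10e-05) and −1.44 ± 0.13 (6.00e-05), and lost these calls under cyclic loess and quantile normalization. *eef2b* had 1146, 1138 and 1139.5 RPKM in mutants, 2672, 1916 and 2924 RPKM in morphants and 3896, 4513 and 4627 RPKM in wild type. The eEF1A genes *eef1a2*, *eef1a1b* and *eef1a1l1*, which bring tRNAs to the ribosome and are alike in sequence, were also called lower, with −3.30 ± 0.60, −2.48 ± 0.23 and −1.51 ± 0.17 (adjusted p 0.0029, 7.30e-05 and 0.00022). For *eef1a1l1* this turned to 0.050 under quantile normalization and 0.075 under cyclic loess. Higher in mutants were *mlst8*, a part of the mTOR complexes (1.91 ± 0.21, 0.000179), *rps6kb1a*, an S6 kinase (1.62 ± 0.43, 0.0174), *eef2a.1* (1.56 ± 0.27, 0.00212) and *mknk2b*, a kinase of eIF4E (1.07 ± 0.15, 0.000618). All 4 were also called higher in morphants, with 1.32, 1.89, 1.57 and 1.92 in this order. *mknk2b* was lower in mutants than in morphants (−0.85 ± 0.15, 0.00599). The more abundant copy *rps6kb1b* was lower in mutants, under 2-fold (−0.55 ± 0.16, 0.028). *mlst8* had 4.64, 5.79 and 4.73 RPKM in mutants, 3.21, 3.50 and 3.21 RPKM in morphants and 1.32, 1.13 and 1.35 RPKM in wild type. In mutants against wild type the *rps6kb1a* change was 1.02 without wild-type replicate 1, and its call was lost without any one mutant replicate (adjusted p 0.0503 to 0.0525), that of *mknk2b* without wild-type replicate 1 (0.93). With library read totals *eef1b2*, *eef1a1l1* and *WARS*, a gene of the stress list, were no longer called.

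Of a list of 27 symbols that act in the integrated stress response, which phosphorylated eIF2 alpha sets off, 24 were tested. In mutants 2 were called higher and 1 lower (8.33% and 4.17%, both under the 10.4% and 12.1% of all genes), with a median of 0.17. In morphants 4 were called higher (16.7%, beside 7.45%), with a median of 0.46, and in mutants against morphants 2 were called lower (8.33%, beside 2.4%), with a median of −0.30. Further genes passed the adjusted p in mutants but stayed under 2-fold. *atf4b2*, *cebpg*, *asns*, *tars*, *sars*, *trib3*, *psat1*, *ddit4* and *aars* were higher (0.28 to 0.93), *phgdh*, *atf4b1*, *eprs* and *gars* lower (−0.92 to −0.34). On the adjusted p alone 17.8% of all genes were higher and 18.2% lower. *ppp1r15a*, which directs the phosphatase that restores eIF2 alpha, had 13.6, 13.1 and 13.5 RPKM in mutants, 13.9, 15.0043 and 16.6 RPKM in morphants and 5.63, 6.75 and 2.75 RPKM in wild type and was higher in mutants by 1.49 ± 0.28 (adjusted p = 0.00321). *ddit3*, the transcription factor CHOP, had 10.0045, 10.4 and 8.05 RPKM in mutants, 5.72, 5.71 and 1.52 RPKM in morphants and 2.83, 3.71 and 2.04 RPKM in wild type. It was higher in mutants by 1.72 ± 0.46 (adjusted p = 0.0177), a call lost without mutant replicate 1 or 2 or wild-type replicate 3 (adjusted p 0.0517 to 0.0594). *WARS*, a tryptophan tRNA ligase, was called lower in mutants (−1.57 ± 0.20, adjusted p = 0.000421), with 10.3, 9.11 and 8.35 RPKM in mutants, 20.7, 17.7 and 23.6 RPKM in morphants and 19.9, 31.3 and 33.99 RPKM in wild type.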

How the data were processed

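RNA from pools of 30 embryos was read as 50-base single-end reads, which the authors aligned to Zv9 with STAR and counted per gene with HTSeq, options not stated. The authors deposited RPKM values for 33737 genes, relative to normalized library sizes; times gene length, 100% of values were whole reads (tolerance 0.01). No per-sample column was left unused. Here log2(RPKM + 0.1) was kept for the 21982 genes that reached 0.5 RPKM in 3 or more libraries and fitted as 3 group means over all 9 libraries with limma 3.58.1 (R 4.3.3, mean-variance trend, Benjamini-Hochberg adjustment), after a test on simulated data. A floor is 3 reads and covers counting error only. Tables and figures used Python 3.11.15, numpy 2.4.6, pandas 2.3.3, scipy 1.17.1 and matplotlib 3.10.9. The members, role groups and lists were chosen with earlier results of these data known. Named were all called factors, the most abundant and most changed of each role, their copies, and the up to 5 called list genes with the largest rise and fall in mutants at a mean of at least 2 RPKM. Also named were the stress genes that passed the adjusted p in mutants under 2-fold, and *rps6kb1b*, the copy of a called list gene. A names table paired 85.9% of the factors with a symbol. No coordinates or sequences are given, since the reference tables used here are of another build. One tissue marker is not reported here and was left out of its list. One wild-type library is replicate 3 by its title but has the number 2 in a short label. Replicate numbers did not pair samples. Alternatives were other pseudocounts, filters, scalings, weights, voom on the recovered reads, a replicate block and leaving out each library.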

Additional observations from a re-analysis of the deposited data

How the results depend on the processing

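Calls were counted again under 23 settings. Factors called higher in mutants against wild type, 9, numbered 18 with library read totals and 16 on the adjusted p alone (9 to 11 with 1 replicate left out), and those called lower, 10, numbered 1 with read totals, 6 under quantile normalization, 5 under cyclic loess and 30 on the adjusted p alone (9 to 14). In morphants against wild type the 9 called higher became 15 with read totals, 5 under cyclic loess and 23 on the adjusted p alone (8 to 12), and the 1 called lower became 0 with a mean of at least 2 or 10 RPKM, 2 under quantile normalization, 3 under cyclic loess and 14 on the adjusted p alone (0 to 1). In mutants against morphants the 1 called higher became 4 with read totals or on the adjusted p alone, and 0 with a pseudocount of 1, no filter, either mean filter, quantile normalization, cyclic loess, voom, or any replicate left out (0 to 0). The 1 called lower became 2 with only the 2 groups compared or voom, 0 with read totals, quantile normalization or cyclic loess, and 23 on the adjusted p alone (0 to 2). Same-numbered samples did not deviate together (correlations from −0.041 to 0.0060), and the replicate block gave 9 and 10 calls in mutants, 9 and 1 in morphants, and 0 and 1 in mutants against morphants. Among factors past the adjusted p in mutants against wild type, 11 of the 30 lower ones turned with read totals, to 0.10 for *eif5*, 0.21 for *eif4e2*, 0.18 for *eif2s3*, 0.33 for *eif2b4*, 0.165 for *eif3m*, 0.195 for *eif3f*, 0.0015 for *eif3ba*, 0.39 for *eif4bb*, 0.12 for *eif4ba*, 0.32 for *eif4h* and 0.25 for *eif6*. *eif3m* and *eif3f* also turned under quantile normalization (0.017 and 0.11) and cyclic loess (0.060 and 0.15). In mutants against morphants 2, 1 and 4 such factors turned under these 3 settings, to at most 0.15. Directions turned as well for *eef1a1l1* under quantile normalization (0.050) and cyclic loess (0.075), and for the ratio of *eif3eb* to *eif3ea* under cyclic loess (−0.16). Wild-type depth limits what can be said of low factors such as *eif4e1b* and *eif2b1*. Apart from these values and the calls named in the report, the cause of each of these shifts was not tested.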
